A study of Sus scrofa with 24 samples.

Results

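Isolated circRNAs are the circRNAs of the deposited table that had no listed neighbor. Each of them overlapped no other listed circRNA on the same chromosome and strand and lay more than 200 kb from the nearest one on that strand. Of the 3000 circRNAs in the table, 887 (29.6%) were isolated by this rule, which used positions in Sscrofa11.1 and no read count. Another 626 overlapped no other circRNA but lay 200 kb or less from one (called near below), and 1487 overlapped at least 1 other. The paper reports many more circRNAs in these spleens than the table lists. An isolated circRNA is therefore apart from other listed ones only, and unlisted ones may lie nearer. The data came from the spleens of 24 healthy Meishan pigs, an indigenous Chinese breed, with no treatment. Spleens were taken at 8 stages after birth, weekly from day 7 to day 35 and also on day 1, day 120 and day 180, with 3 pigs per stage and 1 library per pig. Comparisons between stages are therefore between different pigs. The value of a circRNA in a library was the count of reads across its back-splice junction. Whole-table totals ran from 16273 to 87867 such reads per library, and counts of 1 were listed at 0.

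A circRNA forms when the spliceosome joins the end of an exon (the donor) to the start of the same or an upstream exon (the acceptor), which closes the RNA into a ring. Having no free ends, such rings resist exonucleases and can persist in cells for longer than the linear mRNA of the same gene. The spleen filters blood in its red pulp and holds B cell follicles and T cell zones in its white pulp, which grow after birth as lymphocytes settle there.

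The ring is marked by its junction, a sequence that the linear mRNA does not contain. Junctions are shown first for the 5 most abundant isolated circRNAs, as read from the RefSeq genome of Sscrofa11.1 in the direction of transcription. Lower-case letters are the last 15 bases of the donor side, and capitals are the first 15 bases of the acceptor side, where the ring closes.
circRNA_24032, immunoglobulin kappa V segment LOC100736878, chr3:57235342-57272274 (+): tgctctgggtcccagGATCCGATGGGGCCA
circRNA_02355, UBE3A, chr1:141920484-141927044 (+): tgaagctagccgaatGTTAAAAATCTGTAA
circRNA_38964, GRIPAP1, chrX:43052047-43052598 (-): atccgcgaggagaagGAGTCATTGCGGGCC
circRNA_20191, STK17A, chr18:51340815-51349397 (-): catcttgatctgaagGGGGAAATTTGCAGT
circRNA_26932, RNF115, chr4:99515003-99537986 (+): cccagcttttgaaagGAATATATTTGTCCC

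Next come examples of the 154 circRNAs called for the age trend, from those with a mean of at least 10 normalized counts (defined below). CD96, CTSS and the non-coding RNA gene LOC106506475 were among the 8 with the smallest p for a rise. AP2A1, PLCL2, SLC45A4 and BTBD7 were among the 8 with the smallest p for a fall.
circRNA_11685, CD96, chr13:148164225-148168420 (-): gatgtccttggaaagGAGGGTAATGGAACG
circRNA_26897, CTSS, chr4:98422323-98423402 (+): gaagtgaaataccagAATGAGGAAGTAGCA
circRNA_17415, LOC106506475, chr16:25613034-25618464 (-): attgcaacttggcagTGTGGAAGCTTCTTG
circRNA_30335, AP2A1, chr6:54801799-54802488 (+): catcttggtggccggGTAAGAGCAAGGAGG
circRNA_08965, PLCL2, chr13:4115487-4120836 (+): acgacttacgacatgGATGGTACAAAACAA
circRNA_25535, SLC45A4, chr4:2484106-2484734 (+): tcctcttgcagatcgATCGCCAGTCCCTCG
circRNA_34381, BTBD7, chr7:114673750-114675741 (-): acatgcttgcacaagAAATGGATGAAAAGA

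The last junctions belong to the most distant circRNAs (the first 5) and to the most abundant ones outside the exons of any annotated sense gene (the other 5).
circRNA_20768, IMMP1L, chr2:29279514-29285842 (+): aaaggtcatagttatGCCAATGGTGGCAGA
circRNA_35811, no annotated gene, chr8:102220724-102226105 (+): agaaaaagaggggagGTAGTTGTCGGAGAT
circRNA_02434, RTTN, chr1:152723999-152737450 (+): ggtcaggatggtgagCTGGAAATCTGCACA
circRNA_38695, PRPS2, chrX:9518317-9519806 (+): cggcggcgccaaaagAGTCGTGCTCCGATT
circRNA_38824, ZFX, chrX:20243402-20247157 (+): acctaatgatttcctGAGCTCTGACTGATG
circRNA_26651, intron of CFAP126, chr4:89111117-89111486 (+): ccctaggactaggagAGCATCACTTGAGAC
circRNA_16996, no annotated gene, chr15:131385450-131395443 (-): tgtggaccacatgagGATGTTTTCAGTCCA
circRNA_26722, no annotated gene, chr4:92905727-92908284 (-): tcggggacgcccatgGTGTCTGCCGCAGTG
circRNA_23455, no annotated gene, chr3:28903672-28904794 (-): tcttccatctcagagAGCCAGTCCTGCCCA
circRNA_38150, antisense to DNM3, chr9:114529701-114533673 (-): accgatattctctttGTTTTGCACACTAGG
In the genome, all 3000 circRNAs of the table, and so all isolated ones, had AG just before the acceptor and GT just after the donor, because the authors' caller kept only junctions with these splice signals.

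The distance from an isolated circRNA to its nearest listed neighbor on the strand had a median of 998 kb, with quartiles of 516 kb and 1.95 Mb. In 443 (49.9%) it was over 1 Mb, and in 39 over 5 Mb. IMMP1L circRNA_20768, of a peptidase of the inner mitochondrial membrane, was the most distant at 11.4 Mb. It was followed by circRNA_35811, with no annotated gene, at 11.2 Mb and by RTTN circRNA_02434, of a centriole protein, at 10.8 Mb. PRPS2 circRNA_38695, of an enzyme that makes the ribose donor of nucleotides, and ZFX circRNA_38824, of an X-linked transcription factor, were each other's nearest neighbor at 10.7 Mb. Just inside the threshold lay PRKD3 circRNA_24896 at 201596 bases and SFMBT1 circRNA_09751 at 202238 bases. Just outside it lay UBE3B circRNA_13195 at 198823 bases and NDRG3 circRNA_18945 at 198237 bases. Counted on either strand, 698 circRNAs would be isolated. A pair of isolated circRNAs overlapped each other on opposite strands, circRNA_25137 and circRNA_25141, at the genes RBKS and BABAM2 on chromosome 3.

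**Figure D1:**
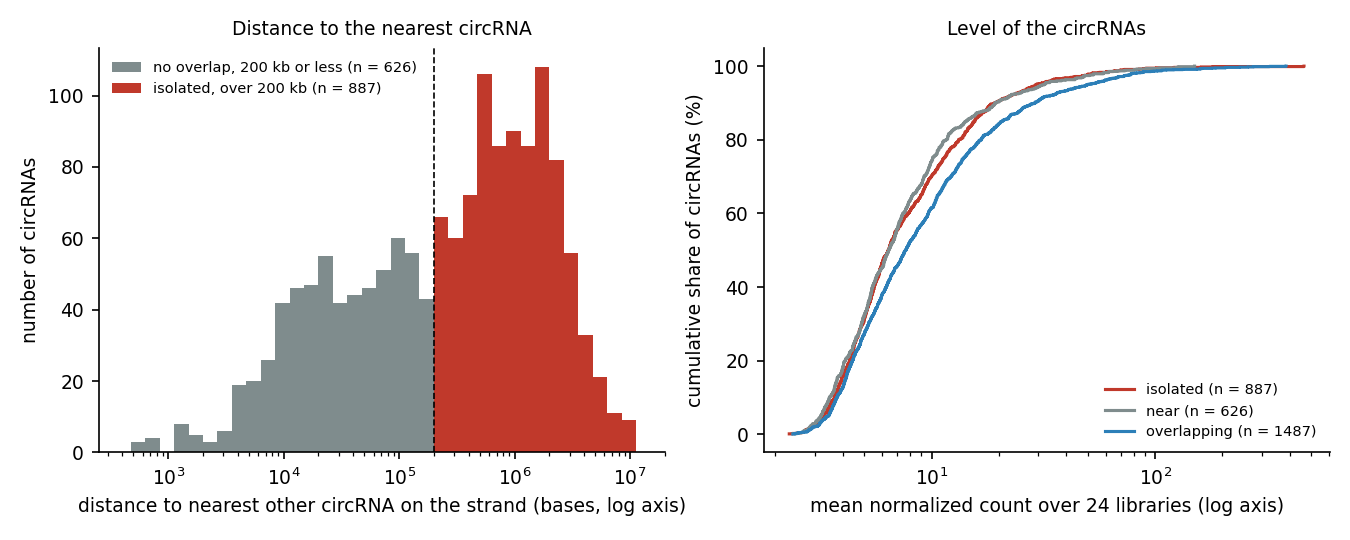
Left, number of circRNAs (y axis) by distance in bases to the nearest other listed circRNA on the strand (x axis, log), for the 887 isolated and 626 near circRNAs, with the 200 kb threshold dashed. Right, cumulative share of circRNAs in percent (y axis) by mean normalized count over 24 libraries (x axis, log), where the curves of isolated and near circRNAs run close together and overlapping circRNAs, with a median of 7.67, lie to the right of both.

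Isolated circRNAs were mostly the sole listed product of their gene. The rule largely sets this, since another listed ring of the gene must lie over 200 kb away. Both ends of 828 (93.3%, against 94.8% of the table) matched exon ends of 1 RefSeq transcript, and these came from 826 of the 1674 host genes. Isolation did not always mean 1 listed circRNA per gene, and 5 of the 828 had another listed ring of their host gene. SLC8A1, a sodium-calcium exchanger gene, held circRNA_24810 (exon 2) and circRNA_24819 (exons 3 to 8), separated by 257 kb. ATRNL1, a gene related to attractin, held circRNA_14812 (exons 2 to 5) and circRNA_14816 (exons 22 to 24), separated by 259 kb. In both genes the ring nearer the 3′ end was called for a rise with age, SLC8A1 circRNA_24819 with a slope of 0.31 ± 0.10 log2 per doubling of age (standard error, adjusted p = 0.0164) and ATRNL1 circRNA_14816 with 0.20 ± 0.07 (adjusted p = 0.0474). The call of SLC8A1 was lost without day 180 replicate 2 (adjusted p = 0.0626) and after thinning the libraries to equal totals (0.501). That of ATRNL1 was lost in 22 of 33 alternatives, such as scaling by the total count of each library (adjusted p = 0.111) or without any of day 1 replicate 1, each of day 7, day 14 replicates 2 and 3, day 28 replicate 1, each of day 35, each of day 120 and day 180 replicates 1 and 3 (adjusted p from 0.0504 to 0.185). Their partners had slopes of 0.13 ± 0.08 (circRNA_24810, adjusted p = 0.249) and 0.10 ± 0.11 (circRNA_14812, adjusted p = 0.589), and the difference within a gene was not tested. The other 59 isolated circRNAs overlapped exons of a gene without matching their ends (36), crossed a gene end (11), had no annotated gene (10), lay in an intron (1) or were antisense (1).

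Lengths, exons, GC content, introns and host genes were taken over circRNAs matched to exon ends of 1 transcript, 828 of them isolated. Isolated circRNAs had a median length of 394 nt, against 384 nt in near and 431 nt in all circRNAs. The median was 3 exons in each of these sets. A single exon made up 53 of the isolated ones (6.4%), against 4.44% of near, 2.34% of overlapping and 3.97% of all circRNAs. Their median GC content was 45.3%, against 43.4% in near and 42.4% in overlapping circRNAs. The introns beside them had median lengths of 8930 bases upstream and 8120 downstream, against 5470 and 5150 in near, 8480 and 6880 in overlapping and 7820 and 6740 in all circRNAs, while their host genes were shorter (median 76600 bases, against 101000 for overlapping circRNAs). The ring started at exon 2 in 267 of the 828 (32.2%), against 30.0% of overlapping, 19.1% of near and 28.3% of all circRNAs. The sequence outside the ends was taken over all 887 isolated circRNAs, matched or not. In the 1 kb beside each end a median of 38.6% of bases was masked as repeat, against 44.9% in near and 43.8% in overlapping circRNAs. A 20-base sequence occurred on one side and its reverse complement on the other in 138 isolated circRNAs (15.6%), against 23.2% of near ones and 17.9% of the table. These are descriptions of sequence, since the classes were set by position and circRNAs of 1 gene share their introns. Isolated circRNAs made up 44.2% of the listed circRNAs on chromosome 14, 42.4% on chromosome 2 and 22.3% on chromosome 10, the highest and lowest shares. Per 10 Mb, chromosome 12 held 5.19 isolated circRNAs and chromosome X held 1.35.

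Levels are given as normalized counts, that is counts brought to a common library size with TMM (trimmed mean of M values) factors. The median level of an isolated circRNA over the 24 libraries was 6.40 normalized counts, close to the 6.43 of near and below the 7.67 of overlapping circRNAs, and 265 (29.9%) had a mean of at least 10. Read counts were above 0 in all 24 libraries for 242 of the isolated ones (27.3%, against 27.3% of near circRNAs and 33.3% of the table). At day 1 between 632 and 743 isolated circRNAs had reads in a library, and at day 120 between 873 and 878. Whole-table totals were 16273 to 23752 reads per library at day 1 and 71092 to 87867 at day 120. Detection depends on depth, so these counts do not compare expression between stages. Together the isolated circRNAs held 24.8 ± 0.458% of the table's reads at day 1 (SD, n = 3 pigs per stage), 24.3 ± 0.429% at day 7, 25.1 ± 1.72% at day 14 and 25.5 ± 0.463% at day 21. The shares were 26.2 ± 0.903% at day 28, 26.5 ± 0.364% at day 35, 25.6 ± 0.856% at day 120 and 26.6 ± 0.299% at day 180. The libraries of day 35 and day 180 all lay above those of day 1 and day 7. These shares include circRNA_24032, the most abundant member, which was far higher at day 180 than at day 1 (described below). Shares without it were not computed, so a shift of the whole set is not shown. The highest stage mean fell at day 180 for 176 isolated circRNAs (19.8%, against 18.1% of the table), at day 1 for 130 (14.7%, against 13.2%), at day 7 for 129 (14.5%, against 16.8%) and at day 120 for 121 (13.6%, against 14.0%).

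The most abundant isolated circRNA, circRNA_24032, spans a V segment of the immunoglobulin kappa light chain locus, the part of the antibody gene that encodes the antigen-binding domain. It had 13.9, 11.5 and 27.1 normalized counts in the 3 libraries of day 1 and 119, 60.2 and 49.5 at day 7. At day 14 it had 1230, 227 and 66.1 and at day 28 it had 1070, 239 and 391, so pigs of 1 stage differed widely. At day 180 it had 750, 866 and 934, all above the libraries of day 1. The log2 fold change was 5.56 with a standard error of 0.95, given as 5.56 ± 0.95 from here on (adjusted p = 0.00117 from edgeR's quasi-likelihood test). V segments are a family of near-identical copies, so the assignment of these reads to this segment is uncertain. The interval runs from base 57235342 to base 57272274 of chromosome 3. Whether its junction reads came from a ring was not tested. The call at day 180 was lost among the 17 libraries in which 0.96 or more of the bases were valid (adjusted p = 0.0915), which leaves 1 library of day 180.

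The next most abundant were steadier. UBE3A circRNA_02355, of a ubiquitin ligase, had 153, 191 and 137 normalized counts at day 1 and 170, 218 and 227 at day 180, which overlap. Its slope with age was 0.06 ± 0.02 log2 per doubling of age (adjusted p = 0.0474), the call failed in 18 of 33 alternatives, such as table totals in place of TMM (adjusted p = 0.484), and it was lost on leaving out any of 12 single libraries (day 1 replicates 1 and 3, day 7 replicate 1, day 28 and day 35 replicates 1 and 2, each of day 120, and day 180 replicates 2 and 3), with adjusted p from 0.0501 to 0.0956. GRIPAP1 circRNA_38964, of an adaptor of recycling endosomes, rose from 133, 92.2 and 110 at day 1 to 191, 275 and 197 at day 180 (slope 0.14 ± 0.03, adjusted p = 0.000152), and its stages of day 1 and day 180 did not overlap. STK17A circRNA_20191, of a kinase related to death-associated protein kinase, rose from 57.7, 56.0 and 73.8 at day 1 to 181, 184 and 183 at day 120. RNF115 circRNA_26932, of a ubiquitin ligase of vesicle traffic, had 65.7, 64.2 and 66.3 at day 1, 67.4, 71.1 and 67.1 at day 7 and 159, 143 and 124 at day 120. The day 1 and day 7 libraries of RNF115 lay within 7 normalized counts of each other and below every library of day 120. Its slope was 0.15 ± 0.03 (adjusted p = 0.000129).

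Among isolated circRNAs with a mean of at least 50, those with the smallest range of stage means were UBE3A circRNA_02355, FAM114A2 circRNA_18181, RALGAPA1 circRNA_33556 and CEP57 circRNA_36932, with ranges of 0.52, 0.55, 0.73 and 0.79 on the log2 scale. FAM114A2 had stage means from 71.8 ± 7.00 at day 14 to 105 ± 23.8 at day 1 (SD, n = 3). RALGAPA1, of a subunit that switches off Ral GTPases, ran from 45.1 ± 13.4 at day 7 to 74.8 ± 10.6 at day 180. CEP57, of a centrosomal protein, ran from 65.7 ± 9.99 at day 1 to 113 ± 9.60 at day 21. None of the last 3 was called for a trend with age (adjusted p = 0.625, 0.101 and 0.419) or for any stage difference (0.626, 0.102 and 0.0746).

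**Figure D2:**
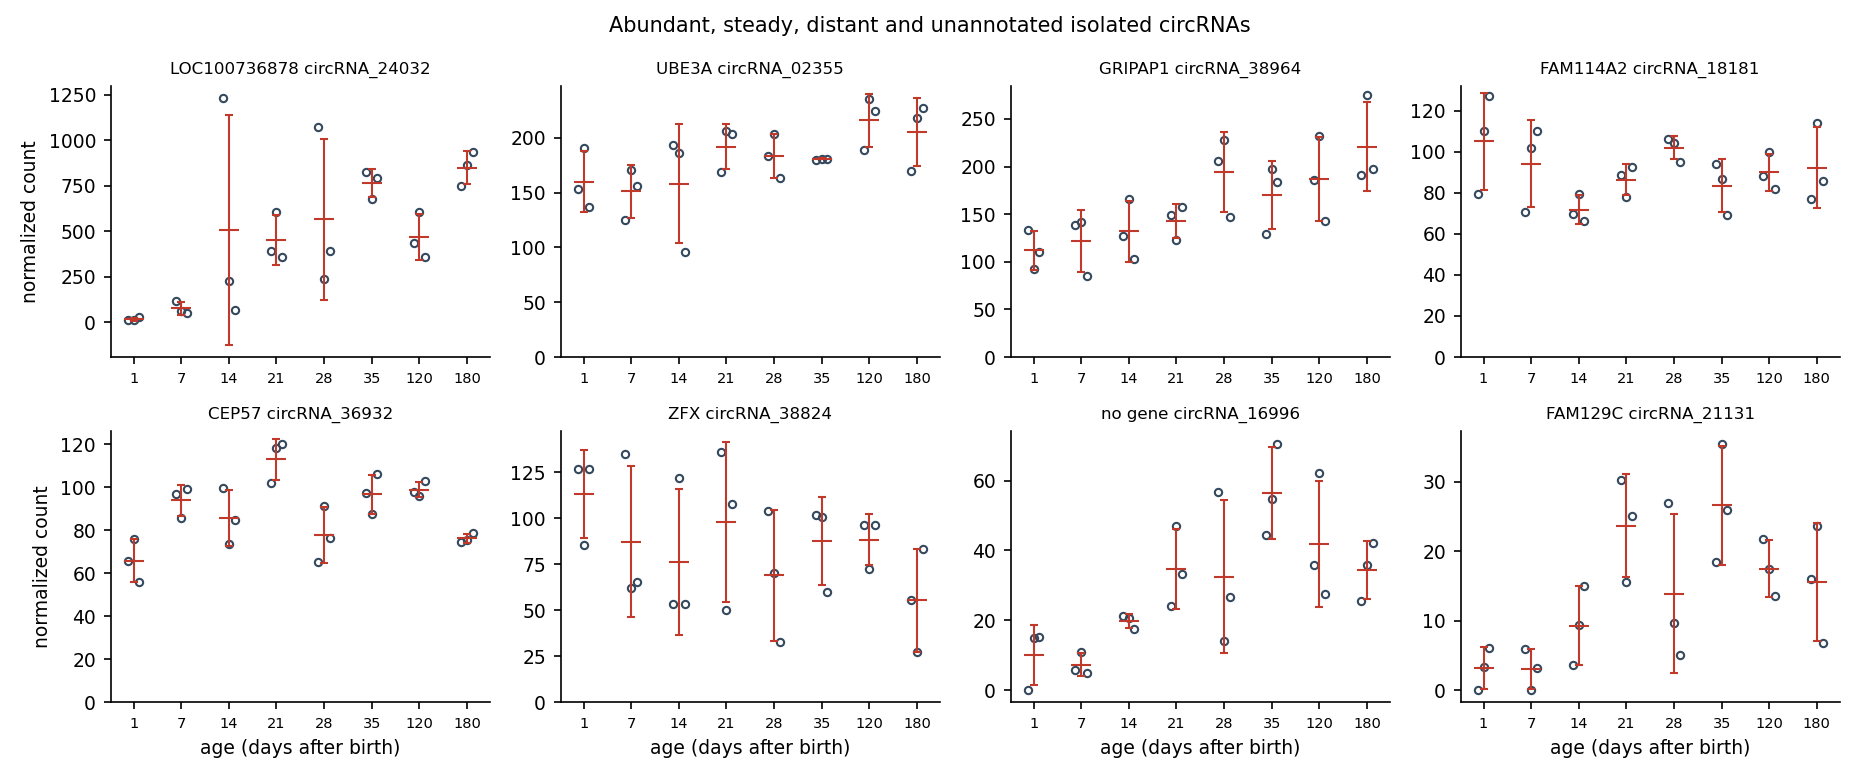
Normalized counts (y axis) of 8 isolated circRNAs at each age in days (x axis); each circle is 1 pig, and line and bar give the stage mean with its SD (n = 3). The 3 libraries of circRNA_24032 at day 180 lie between 750 and 934, while FAM114A2 circRNA_18181 has stage means between 71.8 and 105.

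The age trend asks whether a circRNA tended to rise or fall over the 8 stages, not whether the change was even. The slope, in log2 units per doubling of age, was tested with edgeR's quasi-likelihood test in 1 fit over all 3000 circRNAs and 24 libraries (Benjamini-Hochberg adjusted p under 0.05). Rankings by p or by size of change, here and below, are among isolated circRNAs with a mean of at least 10 normalized counts. Of the 887 isolated circRNAs 154 were called (17.4%), against 16.5% of all 3000. Rises numbered 103 (11.6%, against 10.7%) and falls 51 (5.75%, against 5.77%), so isolated circRNAs were called about as often as the table. Their median slope was 0.033, against 0.029 over all circRNAs. Scaled by table totals, the split was 72 rises and 82 falls, with DESeq2 size factors 90 and 63, with DESeq2 as the tool 110 and 85, and after thinning each library to the lowest total 37 and 36. A slope is therefore relative to the TMM reference. With clean reads as the depth the split was 556 and 4, and the median slope of all circRNAs moved from 0.03 to 0.25. For the slope, the p-values take in the spread between pigs of a stage and departures of stage means from the line. In whole spleen, fewer cells of a type and less RNA per cell cannot be told apart.

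**Figure D3:**
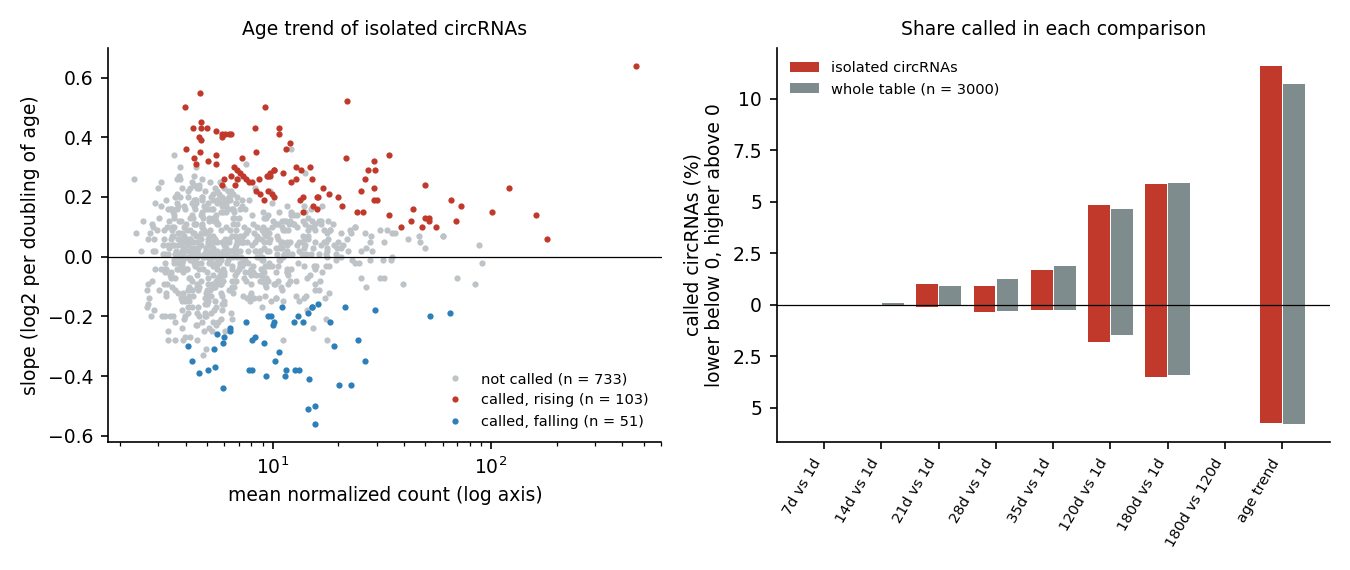
Left, slope with age in log2 per doubling of age (y axis) against mean normalized count (x axis, log) of the 887 isolated circRNAs, of which 103 rose and 51 fell. Right, percent called (y axis, higher above 0 and lower below 0) in each comparison for isolated circRNAs and for the table, where 17.4% and 16.5% were called for the age trend in both directions.

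CD96 circRNA_11685, from exons 4 to 5 of a receptor of T and NK cells, had the smallest p for a rise. It had 0, 3.29 and 4.52 normalized counts at day 1, 11.7, 7.29 and 0 at day 7, and 26, 6.20 and 8.73 at day 14. It had 15.7, 22.6 and 20.7 at day 21, 48.0, 44.1 and 42.1 at day 120 and 34.2, 48.2 and 45.7 at day 180. Every library from day 21 on lay above every library of day 1 and day 7. The slope was 0.52 ± 0.06 (adjusted p = 1.96e-09), and the log2 fold change was 3.94 ± 0.59 at day 120 (adjusted p = 1.7e-05) and 3.88 ± 0.60 at day 180 (adjusted p = 1.49e-05). It was the only circRNA in the table from a list of 23 T and NK cell genes. No other T cell gene of that list was measured here as a circRNA.

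CTSS circRNA_26897, from exons 3 to 4 of cathepsin S, a protease that prepares MHC class II molecules in antigen-presenting cells, rose from 11.9, 9.88 and 15.1 at day 1 to 46.1, 50.5 and 70.2 at day 120 and 47.0, 82.7 and 57.0 at day 180. The ranges of day 1 and of either late stage did not overlap. Its slope was 0.34 ± 0.04 (adjusted p = 8.39e-08) and its log2 fold change at day 180 was 2.33 ± 0.37 (adjusted p = 1.49e-05). STK17A circRNA_20191 had a slope of 0.23 ± 0.03 (adjusted p = 8.39e-08), with log2 fold changes of 1.54 ± 0.22 at day 120 (adjusted p = 5.47e-06) and 1.41 ± 0.22 at day 180 (adjusted p = 1.49e-05). Of these, the call at day 180 was lost among the libraries of 0.96 or more valid bases (log2 fold change 0.88, adjusted p = 0.166). CNOT11 circRNA_23930, of a subunit of the CCR4-NOT complex that shortens poly(A) tails, rose from 41.8, 24.7 and 51.2 at day 1 to 97.1, 75.5 and 110 at day 180 (slope 0.19 ± 0.03, adjusted p = 7.72e-06).

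Several of the strongest rises came from non-coding or poorly named genes. LOC106506475 circRNA_17415, of a long non-coding RNA, had 11.9, 16.5 and 3.01 at day 1, 24.8, 23.8 and 23.7 at day 14 and 42.4, 52.2 and 53.3 at day 120. Its level was thus above day 1 and day 7 in every later library, with a slope of 0.32 ± 0.04 (adjusted p = 2.93e-07). LOC102162338 circRNA_13457, also in a long non-coding RNA gene, followed another course. It had 9.95, 14.8 and 12.1 at day 1, 15.2, 16.3 and 14.9 at day 35, 28.7, 16.8 and 34.4 at day 120 and 70.4, 53.9 and 57.7 at day 180. Most of its rise lay after day 35, with a log2 fold change at day 180 of 2.28 ± 0.38 (adjusted p = 2.39e-05), whereas day 180 vs. day 120 was not called (1.17 ± 0.30, adjusted p = 0.144). LOC110257335 circRNA_17195, annotated as Golgi phosphoprotein 3, a protein of Golgi membranes, rose from 9.95, 11.5 and 21.1 at day 1 to 40.6, 53.9 and 61.5 at day 180 (slope 0.29 ± 0.05, adjusted p = 4.12e-06). LRRK2 circRNA_28945, of a kinase of immune cells and neurons, rose from 3.98, 6.58 and 0 to 22.4, 26.6 and 19.5 (slope 0.38 ± 0.07, adjusted p = 2.96e-05), and this call was lost after thinning (adjusted p = 0.0576). The other 7 of these rises, those of CD96, CTSS, STK17A, CNOT11 and the 3 LOC genes, were called in each of 33 alternatives, which include leaving out each library.

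**Figure D4:**
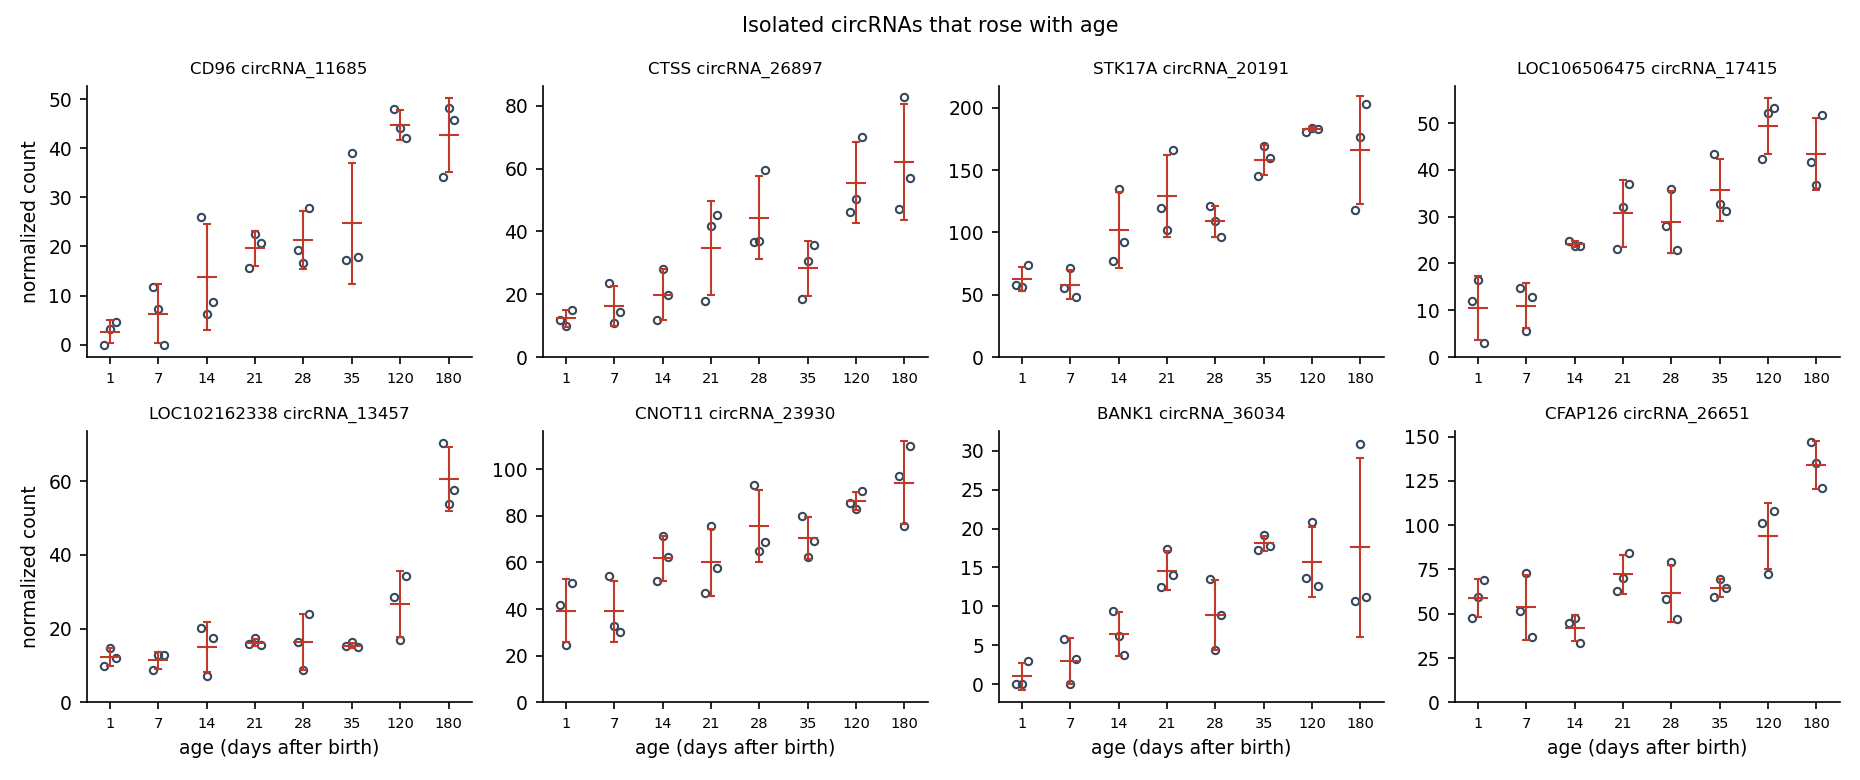
Normalized counts (y axis) of 8 isolated circRNAs that rose with age, at each age in days (x axis); each circle is 1 pig, and line and bar give the stage mean with its SD (n = 3). CD96 circRNA_11685 goes from at most 4.52 at day 1 to at least 34.2 at day 180, and LOC102162338 circRNA_13457 reaches 53.9 to 70.4 at day 180 only.

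Among the falls, AP2A1 circRNA_30335, from exons 2 to 4 of the alpha subunit of the clathrin adaptor AP-2, had the smallest p. It had 83.6, 90.5 and 76.8 at day 1, 108, 96.6 and 104 at day 7 and 29.9, 43.1 and 34.5 at day 180. Every library of day 35, day 120 and day 180 lay below every library of day 1, day 7 and day 14, and the slope was -0.19 ± 0.03 (adjusted p = 1.62e-05). IGF1R circRNA_02314, a ring of exon 2 alone of the receptor of insulin-like growth factor 1, had 99.7, 74.7 and 86.2 at day 7 and 27.3, 20.9 and 32.0 at day 120, with 39.8, 79.0 and 66.3 at day 1. Its slope was -0.20 ± 0.04 (adjusted p = 0.000106). SLC45A4 circRNA_25535, a ring of exon 2 of a solute carrier gene, had 27.9, 32.9 and 15.1 at day 1, 36.6, 51.0 and 51.1 at day 7 and 5.34, 0 and 0 at day 180. All its libraries of day 35 and later lay below those of day 1 and day 7. The slope was -0.51 ± 0.09 (adjusted p = 0.000215), and the log2 fold change at day 180 was -4.04 ± 0.66 (adjusted p = 1.63e-05), or -7.78 without day 180 replicate 1, the only library of day 180 listed above 0.

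BTBD7 circRNA_34381, of a BTB domain protein of epithelial branching, had 25.9, 36.2 and 16.6 at day 1 and 0, 2.16 and 0 at day 180. These were 46 reads at day 1 and 3 at day 180, a ratio of 31.7 with an exact counting interval of 10.2 to 159. Since a listed 0 can stand for 1 read, day 180 may hold 5 reads, which gives 19 with an interval of 7.58 to 61.3. On the log2 scale the fit gave -4.82 ± 0.74 (adjusted p = 1.12e-05), and -7.81 without day 180 replicate 2, the only library listed above 0 there. PLCL2 circRNA_08965, of a phospholipase C-like protein that dampens B cell receptor signals, fell from 19.9, 11.5 and 40.7 at day 1 to 4.27, 4.31 and 2.25 at day 180 (slope -0.38 ± 0.07, adjusted p = 2.32e-05). CTSV circRNA_04944, of the lysosomal protease cathepsin V, had 24.9, 47.4 and 30.3 at day 7 and 2.82, 1.74 and 6.78 at day 120 (slope -0.38 ± 0.07, adjusted p = 8.98e-05). SBSPON circRNA_26260, of a secreted protein with a thrombospondin domain, had 26.4, 54.7 and 30.3 at day 7 and 10.7, 3.59 and 10.5 at day 180 (slope -0.30 ± 0.06, adjusted p = 8.6e-05). In CTSV and SBSPON the libraries of day 7 lay above all those of day 120 and day 180. With clean reads as the depth the trend calls of AP2A1 (adjusted p = 0.468), IGF1R (0.696), PLCL2 (0.0513), SBSPON (0.336), CTSV (0.0622), BTBD7 (0.0765) and KIF11 (0.148) were lost, and the slopes of AP2A1 (0.04) and IGF1R (0.02) turned positive. Among the libraries of 0.96 or more valid bases those of IGF1R (adjusted p = 0.0789) and KIF11 (0.0965) were lost. That of SLC45A4 was kept in all 33 alternatives.

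The list of cell cycle and DNA replication genes held 12 isolated circRNAs, of which 3 fell (25%, against 5.77% of all circRNAs) and 1 rose (8.33%, against 10.7%) with age, with a median slope of -0.09 against 0.03 over all circRNAs. DTL circRNA_38617, of the receptor that marks the replication factor CDT1 for destruction, had 37.8, 31.3 and 25.6 at day 1, 63.0, 62.0 and 59.1 at day 7 and 7.47, 5.03 and 5.25 at day 180. Its libraries of day 7 lay above every other library of the series, and those of day 180 below every library up to day 35, with a slope of -0.35 ± 0.07 (adjusted p = 0.000317) and a log2 fold change at day 180 of -2.41 ± 0.42 (adjusted p = 4.11e-05). KIF11 circRNA_14373, of the kinesin that separates spindle poles, had 20.5, 31.0 and 20.8 at day 7 and 3.20, 2.87 and 2.25 at day 180, with 11.9, 11.5 and 15.1 at day 1 (slope -0.35 ± 0.07, adjusted p = 0.000283). BUB1 circRNA_23829, of a spindle checkpoint kinase, fell too (slope -0.40, adjusted p = 0.000326), at a mean of 9.29 normalized counts, and is named outside the rule after its value was seen. RFC1 circRNA_34816, of the clamp loader of replication, was the one that rose (slope 0.10 ± 0.03, adjusted p = 0.0258), from 29.9, 31.3 and 34.7 at day 1 to 60.3, 65.0 and 44.1 at day 120. Its call was lost with table totals (adjusted p = 0.202), DESeq2 size factors (0.0616), DESeq2 (0.0557), thinning (0.785) and 0.96 or more valid bases (0.0824), and without day 1 replicate 1 (0.0719), day 1 replicate 2 (0.0656), day 120 replicate 2 (0.0533) or day 180 replicate 3 (0.0521). The calls of DTL (adjusted p = 0.136), KIF11 (0.148) and BUB1 (0.0936) were lost with clean reads as the depth, and among the libraries of 0.96 or more valid bases (DTL 0.0828, KIF11 0.0965 and BUB1 0.0885). The other members, among them TOP2A circRNA_07687 (slope -0.08, adjusted p = 0.675) and CENPF circRNA_38552 (-0.19, adjusted p = 0.175), did not pass the test.

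**Figure D5:**
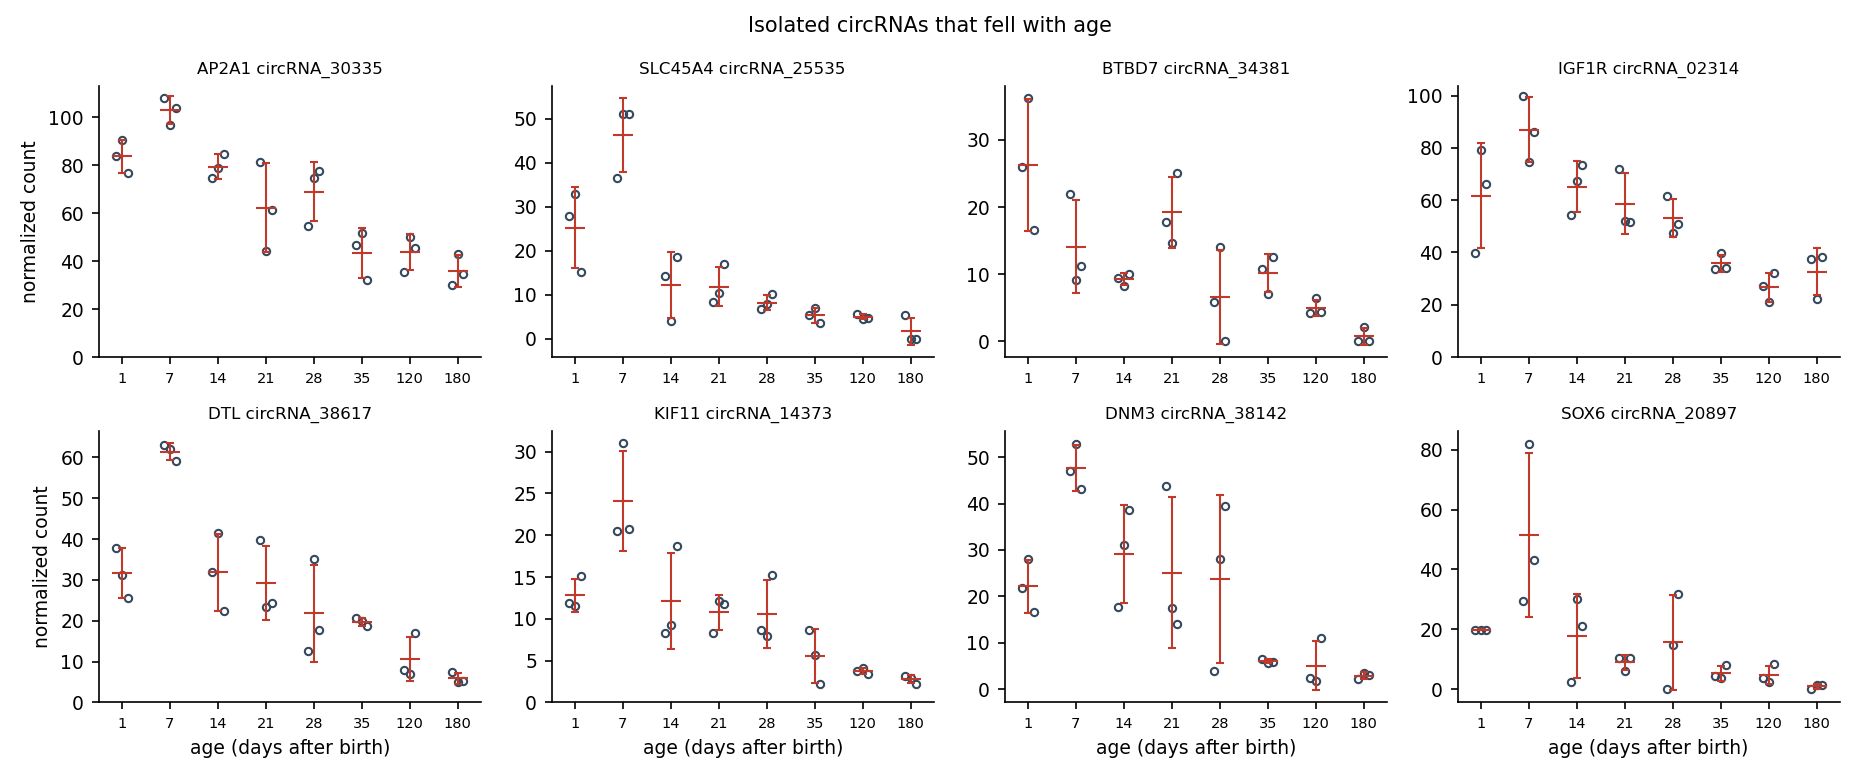
Normalized counts (y axis) of 8 isolated circRNAs that fell with age, at each age in days (x axis); each circle is 1 pig, and line and bar give the stage mean with its SD (n = 3). DTL circRNA_38617 has 59.1 to 63.0 at day 7 and 5.03 to 7.47 at day 180, and SOX6 circRNA_20897 has at most 1.5 at day 180.

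The comparison of day 180 vs. day 1 asks how the spleen of a grown pig differs from that of a newborn. A circRNA was called when the adjusted p was under 0.05 and the level differed 2-fold or more. Of the isolated circRNAs 83 were called (9.36%, against 9.3% of the table), 52 higher (5.86%, against 5.9%) and 31 lower (3.49%, against 3.4%), again about the share of the table. With table totals in place of TMM they numbered 33 and 48, and without day 180 replicate 2 the 83 became 55. The median log2 fold change was 0.234, against 0.197 over all circRNAs. All 7 comparisons with day 1 share these 3 newborn libraries and are not independent of each other. Every library of day 180 was above every library of day 1 for 167 isolated circRNAs (18.8%, against 17.9% of the table) and below for 96 (10.8%, against 11.5%).

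Besides circRNA_24032, CD96, CTSS and LRRK2, the largest rises at day 180 without overlap were those of BANK1, LOC106506781, SUSD3 and an unannotated circRNA. BANK1 circRNA_36034, from exons 6 to 7 of a B cell scaffold protein, had 0, 0 and 3.01 at day 1 and 10.7, 30.9 and 11.2 at day 180. These were 2 reads at day 1 and 68 at day 180, a ratio of 16.5 with an exact counting interval of 4.39 to 139, and the adjusted p was 0.000618. With 1 read in each listed 0, day 1 has 4 reads and the ratio is 8.23 with an interval of 3.07 to 31.1. Its fitted log2 fold change of 3.87 ± 0.80 became 7.32 without day 1 replicate 3, the only library of day 1 listed above 0. LOC106506781 circRNA_19735, in a long non-coding RNA gene, had 0, 0 and 4.52 at day 1 and 16.0, 15.1 and 22.5 at day 180, or 3 and 66 reads, a ratio of 10.7 with an exact counting interval of 3.49 to 53.0 (adjusted p = 0.00152). With 1 read in each listed 0 this ratio is 6.39 (2.61 to 20.3). Its fitted log2 fold change went from 3.33 ± 0.75 to 7.32 without day 1 replicate 3, again the only one listed above 0. SUSD3 circRNA_23740, of a sushi domain protein, rose from 3.98, 0 and 3.01 to 10.7, 18.0 and 15 (2.64 ± 0.67, adjusted p = 0.00601), and the call was lost without day 1 replicate 2 (0.0543) and after thinning, which took the log2 fold change to 1.57 (0.492). The unannotated circRNA_12292 rose from 3.98, 0 and 4.52 to 21.3, 31.6 and 22.5 (3.11 ± 0.77, adjusted p = 0.00601). In each of these 4 circRNAs the lowest library of day 180 lay above the highest of day 1. Among the libraries of 0.96 or more valid bases, 1 of them of day 180, the calls of BANK1 (adjusted p = 0.199), LOC106506781 (0.0866), circRNA_12292 (0.149), SUSD3 (0.287) and LRRK2 (0.0816) were lost, with log2 fold changes of 3.07, 3.12, 2.83, 2.14 and 2.63. The call of LRRK2 was also lost after thinning (2.19, adjusted p = 0.125).

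Among called circRNAs whose stages did not overlap, the largest falls at day 180, beside BTBD7, SLC45A4 and PLCL2, were those of SOX6, TMX1, DNM3, DTL and BARD1. SOX6 circRNA_20897, of a transcription factor of red cell and cartilage development, had 19.9, 19.8 and 19.6 at day 1, 29.3, 82.0 and 43.1 at day 7 and 0, 1.44 and 1.5 at day 180 (log2 fold change -4.05 ± 1.12, adjusted p = 0.0244). TMX1 circRNA_02977, of a thioredoxin-like protein of the endoplasmic reticulum, had 33.8, 34.6 and 13.6 at day 1 and 4.27, 2.16 and 4.50 at day 180 (-2.88 ± 0.62, adjusted p = 0.00125). DNM3 circRNA_38142, of the membrane-cutting GTPase dynamin 3, had 21.9, 28.0 and 16.6 at day 1, 46.9, 52.9 and 43.1 at day 7 and 2.13, 3.59 and 3 at day 180 (-2.84 ± 0.74, adjusted p = 0.0142). BARD1 circRNA_16779, of the partner of BRCA1 in DNA repair, fell from 13.9, 16.5 and 7.53 to 3.20, 2.87 and 1.5 (-2.29 ± 0.69, adjusted p = 0.0218). In SOX6 and DNM3 all 3 libraries of day 7 lay above all 3 of day 1. The call of SOX6 was lost without any of the 6 libraries compared (adjusted p from 0.0523 without day 1 replicate 3 to 0.0811 without day 180 replicate 2), while its log2 fold change stayed between -3.65 and -4.36. That of DNM3 was lost without day 1 replicate 2 (adjusted p = 0.066) and that of PLCL2 without day 1 replicate 3 (0.0588). That of BARD1 was lost without day 1 replicate 1 (0.0651) or 2 (0.11) or day 180 replicate 2 (0.0567) or 3 (0.091), after thinning (0.297) and with clean reads as the depth (0.195). Those of TMX1 and DTL held without any 1 library. Among the libraries of 0.96 or more valid bases the calls of SOX6 (adjusted p = 0.376), TMX1 (0.173), DNM3 (0.127), DTL (0.0631), BARD1 (0.316), SLC45A4 (0.111) and PLCL2 (0.0995) were lost, with log2 fold changes of -7.16, -2.66, -3.32, -2.08, -1.96, -2.24 and -2.51, and that of BTBD7 was kept.

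At day 120 vs. day 1, 59 isolated circRNAs were called (6.65%, against 6.1% of the table), 43 higher (4.85%, against 4.63%) and 16 lower (1.8%, against 1.47%). The 5 largest rises were those of circRNA_24032, CD96, BANK1, LOC106506781 and SUSD3, with log2 fold changes of 4.70 ± 0.93, 3.94 ± 0.59, 3.67 ± 0.80, 3.48 ± 0.73 and 2.56 ± 0.66. BANK1 had 13.7, 20.9 and 12.6 at day 120, a ratio to day 1 of 13.6 with an exact counting interval of 3.67 to 114, or 6.82 (2.58 to 25.6) with 1 read in each listed 0. LOC106506781 had 24, 21.5 and 14.0, a ratio of 11.7 with an exact counting interval of 3.91 to 57.5, or 7.02 (2.92 to 22.0) with 1 read in each listed 0. Without day 1 replicate 3 these log2 fold changes became 7.10 and 7.44. SUSD3 had 10.4, 14.5 and 17.0 and was lost without day 1 replicate 2 (adjusted p = 0.0873), after thinning, which took its log2 fold change to 1.43 (0.631), and with library GC content as a covariate (0.0633). The 5 largest such falls were those of CTSV (-2.41 ± 0.53), BTBD7 (-2.37 ± 0.53), SLC45A4 (-2.28 ± 0.51), PLCL2 (-2.19 ± 0.54) and DNM3 (-2.07 ± 0.64). BTBD7 had 4.24, 6.38 and 4.36 at day 120 and SLC45A4 5.65, 4.64 and 4.84, each below all 3 of its libraries of day 1. CTSV was lost without day 1 replicate 2 (adjusted p = 0.106) and PLCL2 without day 1 replicate 3 (0.16). DNM3 was lost without day 1 replicate 1 (0.121), 2 (0.168) or 3 (0.0661) or day 120 replicate 1 (0.152) or 2 (0.136), and went to -3.34 without day 120 replicate 3. Thinning also ended the calls of LOC106506781 (adjusted p = 0.157), CTSV (0.177) and PLCL2 (0.181), GC content those of PLCL2 (0.082) and DNM3 (0.191), and the replicate block that of DNM3 (0.0558). Among the libraries of 0.96 or more valid bases, 1 of them of day 120, the calls of circRNA_24032 (0.153), BANK1 (0.074), SUSD3 (0.264), BTBD7 (0.0599), SLC45A4 (0.065) and DNM3 (0.0599) were lost. With clean reads as the depth all 5 falls were lost (adjusted p from 0.336 to 0.67), and CD96 was called in all 15 alternatives. Without day 1 replicates 1 and 2 in turn the 59 became 28 and 35, and with table totals the split was 25 higher and 25 lower. With clean reads as the depth 550 were higher and 0 lower, since over all circRNAs this scaling shifted the median change from 0.26 to 1.99 on the log2 scale.

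Earlier stages gave few calls. At day 7 edgeR called 0 isolated circRNAs (0.0% of the table, 0 by DESeq2), with 73 of the 887 at an unadjusted p under 0.05, against 284 of all 3000. At day 14 edgeR called 0 (0.0667% of the table), with 75 of the 887 at an unadjusted p under 0.05, against 257 of all 3000. DESeq2 called 1 (circRNA_24032) of 3 in the table, and without day 14 replicate 3 edgeR called 3 of 10. At day 21, 10 were called (1.13%, against 0.933% of the table), 9 higher (0.9% of the table) and AGBL3 circRNA_19666 lower (0.0333% of the table). At day 28 there were 11 calls (1.24%, against 1.57%), 8 higher (1.27% of the table) and 3 lower (0.3% of the table). At day 35 there were 17 (1.92%, against 2.17%), 15 higher (1.9% of the table) and 2 lower (0.267% of the table). The rises of these stages were largely circRNAs already described. CD96 circRNA_11685 was called at all 3, with 19.2, 16.7 and 27.9 at day 28 and 17.3, 39.0 and 17.8 at day 35. BANK1 had 12.5, 17.4 and 14.0 at day 21 (51 reads, a ratio to day 1 of 13.1 with an exact counting interval of 3.43 to 111, or 6.53 with 1 read in each listed 0) and 17.3, 19.2 and 17.8 at day 35, and SUSD3 had 24, 19.3 and 16.5 at day 28, its highest stage mean (3.08 ± 0.66, adjusted p = 0.00455, or 0.291 after thinning). AFDN circRNA_00031, of the junction protein afadin, was lower at day 28 with 28.8, 25.5 and 14.0, against 33.8, 44.4 and 87.4 at day 1. The largest of these values is that of day 1 replicate 3, without which the log2 fold change of AFDN went from -1.27 ± 0.33 to -0.72 (adjusted p = 0.362), and the call was also lost without day 28 replicate 3 (0.132) and with clean reads as the depth (0.472). The counts rest on single libraries too. The 10 at day 21 became 0 without day 1 replicate 1 or day 21 replicate 3, 1 without day 1 replicate 2, 2 without day 21 replicate 2 and 3 without day 1 replicate 3. The 11 at day 28 became 4 without day 1 replicate 1 and 5 without day 28 replicate 1, and the 17 at day 35 became 9, 10 and 11 without day 1 replicate 1, day 1 replicate 2 and day 35 replicate 2. At day 21 circRNA_24032 (adjusted p = 0.0242) was lost without day 1 replicate 1 (0.144), 2 (0.103) or 3 (0.0723) or day 21 replicate 2 (0.0994) or 3 (0.0587), and BANK1 without day 1 replicate 1 (0.125) or 2 (0.109) or day 21 replicate 2 (0.0921) or 3 (0.0587). At day 28 circRNA_24032 was lost without day 1 replicate 1 (0.061) or 2 (0.0525) or day 28 replicate 1 (0.0508). Among the libraries of 0.96 or more valid bases it was lost at day 21 (adjusted p = 0.253), day 28 (0.111) and day 35 (0.279), and BANK1 at day 21 (0.102) and day 35 (0.179). With GC content as a covariate it was lost at day 21 (0.248) and day 35 (0.0662), as was BANK1 (0.236 and 0.0691), and thinning ended its call at day 21 (0.0616). The fall of AGBL3 was lost without any of the 6 libraries compared (adjusted p from 0.0783 to 0.159).

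At day 180 vs. day 120 edgeR called 0 isolated circRNAs (0.0% of the table, 41 at an unadjusted p under 0.05, 0 by DESeq2). CFAP126 circRNA_26651 had 101, 72.5 and 108 at day 120 and 147, 135 and 121 at day 180, which did not overlap (0.51 ± 0.21, adjusted p = 0.793). Between these stages every library was higher at day 180 for 56 isolated circRNAs (6.31%, against 5.07% of the table) and lower for 71 (8%, against 9.97%).

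A test of any difference among the 8 stages called 83 isolated circRNAs (9.36%, against 8.97% of the table). The 5 with the smallest p among those not called for the age trend changed in other shapes. FAM129C circRNA_21131, of a Niban family protein of B cells, had 0, 3.29 and 6.03 at day 1, 30.3, 15.6 and 25.1 at day 21, 18.4, 35.5 and 26 at day 35 and 16.0, 23.7 and 6.75 at day 180 (adjusted p = 0.0018). Its highest stage mean was that of day 35, and the call was kept in all 33 alternatives. YTHDF3 circRNA_26418, a ring of exon 6 of a reader of N6-methyladenosine, had 24.9, 29.2 and 31.9 at day 7 and 10.7, 5.75 and 5.25 at day 180 (adjusted p = 0.0194). CPEB4 circRNA_17988, of a protein that controls cytoplasmic polyadenylation, had 29.3, 25.5 and 22.4 at day 7, above its other libraries, and 15.9, 11.5 and 4.52 at day 1 (adjusted p = 0.0363). LOC100737051 circRNA_28903, at a gene annotated as cat eye syndrome critical region protein 2, had its lowest stage at day 7 with 0, 0 and 4.79 (adjusted p = 0.0281). CNTRL circRNA_04163, of a centriole protein, had 36.7, 40.0 and 31.5 at day 120 and 37.4, 38.1 and 33.7 at day 180, after 17.3, 14.0 and 21.6 at day 28 (adjusted p = 0.034). The calls of the last 4 depended on single libraries. That of YTHDF3 was lost without day 7 replicate 3 (adjusted p = 0.0671) or day 180 replicate 2 (0.106) or 3 (0.11), and that of LOC100737051 without day 7 replicate 1 (0.157) or 2 (0.13), day 28 replicate 2 (0.0538) or day 120 replicate 3 (0.0527). That of CPEB4 was lost without day 7 replicate 1 (0.153), 2 (0.0971) or 3 (0.0811), day 35 replicate 2 (0.0946) or 3 (0.0617) or day 120 replicate 2 (0.0551) or 3 (0.0674). That of CNTRL was lost without day 1 replicate 1 (0.0505), day 14 replicate 3 (0.0525), day 28 replicate 2 (0.0528), day 120 replicate 1 (0.0827) or 2 (0.0921) or day 180 replicate 1 (0.0807), 2 (0.0847) or 3 (0.0647). These 4 were also lost among the libraries of 0.96 or more valid bases (adjusted p from 0.193 to 0.797). Thinning ended the calls of YTHDF3 (0.0907), LOC100737051 (0.624) and CPEB4 (0.167), table totals those of LOC100737051 (0.0569) and CNTRL (0.0638), and clean reads as the depth that of CPEB4 (0.148).

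The most distant circRNAs showed no call for a trend. ZFX circRNA_38824 was abundant, with a mean of 84.4 normalized counts. It had 127, 85.6 and 127 at day 1 and 55.5, 27.3 and 83.2 at day 180, and pigs of 1 stage differed as widely (136, 50.3 and 108 at day 21), so its slope of -0.09 ± 0.05 did not pass (adjusted p = 0.249). The other 4 were scarce. IMMP1L circRNA_20768 had a mean of 3.95, RTTN circRNA_02434 of 4.99, PRPS2 circRNA_38695 of 6.50 and circRNA_35811 of 7.04 (adjusted p for the slope 0.732, 0.47, 0.251 and 0.267).

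CircRNAs outside annotated exons were few but not all scarce. CFAP126 circRNA_26651, in an intron of a gene of motile cilia, had 47.8, 59.3 and 69.3 at day 1, 44.9, 47.6 and 33.7 at day 14 and 147, 135 and 121 at day 180. Its libraries of day 180 lay above all other libraries of the series, with a slope of 0.17 ± 0.03 (adjusted p = 0.000236) that was called in all 33 alternatives. The unannotated circRNA_16996 had 0, 14.8 and 15.1 at day 1, 44.4, 54.6 and 70.6 at day 35 and 25.6, 35.9 and 42.0 at day 180 (slope 0.29 ± 0.09, adjusted p = 0.0191, or 0.0885 among the libraries of 0.96 or more valid bases). Of the other unannotated ones, circRNA_26722 went from 31.9, 21.4 and 49.7 at day 1 to 9.61, 12.2 and 12 at day 180 but was listed at 0 in 1 to 2 libraries of day 21, day 28 and day 120 (slope -0.28 ± 0.12, adjusted p = 0.106). CircRNA_23455 had a slope of 0.10 ± 0.06 (adjusted p = 0.236). CircRNA_38150, antisense to DNM3, had 5.86, 5.47 and 4.79 at day 7 and 17.1, 19.4 and 19.5 at day 180, with no trend over all stages (slope 0.03 ± 0.05, adjusted p = 0.787), while the sense ring DNM3 circRNA_38142, at another place in the gene, was highest at day 7.

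Few markers of spleen cell types gave isolated circRNAs. The lists held 1 for T and NK cells (CD96), 1 for B and plasma cells (BANK1), 1 for erythroid cells, 2 for macrophages, 1 for stroma and 0 for megakaryocytes. The whole table held circRNAs of 1 of 23 T and NK, 3 of 19 B and plasma, 4 of 19 erythroid, 2 of 19 macrophage, 2 of 19 stromal and 0 of 10 megakaryocyte genes, so the tissue could be checked against its markers only in this narrow way. SPIC circRNA_29171, of the transcription factor that defines red pulp macrophages, had 11.9, 3.29 and 24.1 at day 1 and 39.5, 16.5 and 9.75 at day 180, which overlap (slope 0.07 ± 0.06, adjusted p = 0.44). XPO7 circRNA_12412, of a nuclear exporter of maturing red cells, had a slope of -0.18 (adjusted p = 0.218). FLT1 circRNA_06140, of an endothelial VEGF receptor, had -0.28 (adjusted p = 0.0711). How much of the changes above moved with cell makeup was not tested.

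The remaining lists grouped isolated circRNAs by patterns in the symbols of their host genes, not by known function. Each list below therefore holds the circRNAs whose host symbol matched. Some matched genes do other work, such as METTL9, a histidine methyltransferase, under RNA processing and SETD3, an actin methyltransferase, under chromatin regulators. Shares are given beside the 10.7% of all circRNAs that rose with age and the 5.77% that fell. Among 42 protein kinase circRNAs 8 rose (19%) and 2 fell (4.76%) with age (median slope 0.06, against 0.03 over all circRNAs), with STK17A, LRRK2 and IGF1R leading. Among 34 regulators of small GTPases 7 rose (20.6%) and 4 fell (11.8%), with a median slope of 0.09. ARHGAP26 circRNA_22661, a RhoA-inactivating protein, went from 7.96, 4.94 and 0 at day 1 to 11.7, 26.6 and 16.5 at day 180 (slope 0.29 ± 0.07, adjusted p = 0.00251). DOCK11 circRNA_39339, an activator of CDC42, went from 0, 8.23 and 15.1 to 29.9, 23 and 23.2 (slope 0.20 ± 0.05, adjusted p = 0.00502). DENND5A circRNA_36406, a Rab activator, fell from 13.9, 14.8 and 13.6 to 0, 5.03 and 6.75 (slope -0.23 ± 0.07, adjusted p = 0.0137), a call lost after thinning (adjusted p = 0.251), with 0.96 or more valid bases (0.132) and with clean reads as the depth (0.999). Groups of day 1 and day 180 did not overlap in these 3.

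Among 30 circRNAs of the ubiquitin system 6 rose (20%, against 10.7% of all circRNAs) and 2 fell (6.67%, against 5.77%), with a median slope of 0.06. RNF145 circRNA_18123, of a ligase of the endoplasmic reticulum, rose from 29.9, 29.6 and 34.7 at day 1 to 89.7, 106 and 92.2 at day 180 (slope 0.24 ± 0.05, adjusted p = 0.000407), and its libraries of day 7 were lower still, with 24.9, 20.1 and 11.2. RNF13 circRNA_10613, of an endosomal ligase, had 17.9, 14.8 and 18.1 at day 1 and 32.5, 31.3 and 29.5 at day 120 (slope 0.17 ± 0.05, adjusted p = 0.00568). Among 38 circRNAs of RNA processing genes 5 rose (13.2%) and 2 fell (5.26%), with a median slope of 0.02. DDX1 circRNA_25383, of an RNA helicase, rose from 15.9, 11.5 and 22.6 at day 1 to 38.1, 47.6 and 53.3 at day 120 (slope 0.19 ± 0.04, adjusted p = 0.000211). METTL9 circRNA_23289, of a histidine methyltransferase, rose from 35.8, 28.0 and 37.7 to 84.3, 48.9 and 77.2 at day 180 (slope 0.12 ± 0.03, adjusted p = 0.00385), a call lost with table totals (adjusted p = 0.0501). Both late groups lay above day 1.

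Among 34 membrane transporters 5 rose (14.7%, against 10.7% of all circRNAs) and 4 fell (11.8%, against 5.77%), with a median slope of 0.06. SLC7A1 circRNA_06145, of a carrier of cationic amino acids, fell from 42.5, 38.3 and 25.5 at day 7 to 8, 4.64 and 9.20 at day 120 (slope -0.22 ± 0.06, adjusted p = 0.00406), a call lost with clean reads as the depth (slope 0.01, adjusted p = 0.902). SLC9A7 circRNA_38940, of a sodium-proton exchanger of the Golgi, rose from 7.96, 8.23 and 10.5 at day 1 to 30.6, 33.6 and 21.8 at day 120 (slope 0.23 ± 0.07, adjusted p = 0.00996). Among 22 zinc finger genes 3 rose (13.6%) and 1 fell (4.55%), with a median slope of 0.02, led by ZNF292 circRNA_00780, with 35.8, 56.0 and 46.7 at day 1 and 76.3, 100 and 96.9 at day 120 (slope 0.12 ± 0.03, adjusted p = 0.00391). IKZF1 circRNA_38660, of the lymphoid transcription factor Ikaros, had 39.8, 21.4 and 34.7 at day 1 and 18.1, 12.9 and 18.7 at day 180, which did not overlap, and did not pass (slope -0.10 ± 0.04, adjusted p = 0.122). ZNF280D circRNA_01645 did not pass either (slope 0.15 ± 0.06, adjusted p = 0.0908).

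Among 20 chromatin regulators 2 rose (10%, against 10.7% of all circRNAs) and 0 fell (0.0%, against 5.77%) by edgeR's test, with a median slope of 0.03. KDM4C circRNA_03434, of a histone demethylase, went from 3.98, 14.8 and 12.1 at day 1 to 21.3, 30.9 and 27.7 at day 180 (slope 0.20 ± 0.05, adjusted p = 0.00171). MBD2 circRNA_01375, of a reader of methylated DNA, rose with a slope of 0.41 (adjusted p = 0.00139) at a mean of 6.06. SETD3 circRNA_34466, of an actin methyltransferase, had 59.7, 90.5 and 81.4 at day 1 and 40.6, 36.7 and 52.5 at day 180, which did not overlap, with a slope that did not pass (-0.07 ± 0.03, adjusted p = 0.0994). BRD7 circRNA_29982, of a bromodomain protein, did not pass (0.07 ± 0.03, adjusted p = 0.145). Among 32 circRNAs of clathrin and vesicle traffic 1 rose (3.12%) and 2 fell (6.25%), with a median slope of 0.05 and with AP2A1 and DNM3 the falls. SNX2 circRNA_22244, of a sorting nexin, was the rise (slope 0.21, adjusted p = 0.0197), and EXOC2 circRNA_32397, of the exocyst, did not pass (-0.11 ± 0.05, adjusted p = 0.127). Among 8 of centrosome and cilium genes 1 rose (12.5%), the intronic circRNA of CFAP126, and DYNC1LI1 circRNA_09120, of a dynein chain, had -0.07 ± 0.05 (adjusted p = 0.358).

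Apart from SLC8A1, whose loss is given above, the trend calls named with values in these lists were kept when any 1 library was left out, save those of RFC1, UBE3A and SNX2, the last lost without day 1 replicate 2 (adjusted p = 0.0656). They held less well under other settings. Thinning ended the calls of RNF13 (adjusted p = 0.163), ARHGAP26 (0.201), METTL9 (0.153), ZNF292 (0.0606), SLC9A7 (0.123), DNM3 (0.0715), SNX2 (0.413) and MBD2 (0.142). Among the libraries of 0.96 or more valid bases those of KDM4C (0.0901), RNF13 (0.314), ARHGAP26 (0.209), DOCK11 (0.0605), DDX1 (0.0924), ZNF292 (0.165), SLC7A1 (0.305), SLC9A7 (0.13), DNM3 (0.412) and SNX2 (0.292) were lost. Clean reads as the depth ended the call of DNM3 (0.0606) and table totals that of SNX2 (0.0616). RNF115, RNF145 and CFAP126 were called in all 33 alternatives.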

How the data were processed

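Spleen total RNA of 24 pigs was depleted of ribosomal RNA and sequenced. The GEO labels name a TruSeq stranded kit with RNeasy extraction, whereas the study's methods name TRIZOL, RNase R and a NEBNext directional kit, and which applied is unresolved here. The values are raw counts of back-splice reads that the authors obtained by aligning to Sscrofa11.1 with BWA and calling circRNAs with CIRI2. The submitters' processing notes also name FastQC, cutadapt and TopHat2. The deposited table lists 3000 circRNAs, with no count of 1, and how these were selected is not given in the sources used here. A 0 therefore stands for 0 or 1 reads. All 24 columns were mapped to samples by name.

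Members were found from coordinates alone, and host transcripts, exons, introns and junction sequences were read from the RefSeq genome and annotation of Sscrofa11.1, with exon ends matched within 1 base. Normalized counts are counts divided by the effective library size (table total times TMM factor) and multiplied by the geometric mean of these sizes. Tests used edgeR 4.0.16 quasi-likelihood fits over all 3000 circRNAs and 24 libraries, with a coefficient per stage or a slope on log2 age, in R 4.3.3 with limma 3.58.1. P-values were adjusted by Benjamini-Hochberg over the 3000 circRNAs. Table totals had a median of 37510 reads and the biological coefficient of variation was 0.3. Exact intervals on ratios of reads have a level of 95% and cover counting error only. Scripts were tested on simulated data. Python 3.11.15, pandas 2.3.3 and matplotlib 3.10.9 drew and tabulated the results.

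Alternatives were table totals, DESeq2 size factors, DESeq2 1.42.0, clean reads as the depth, thinning, a filter on low counts, a replicate block, library GC content as a covariate, libraries with at least 0.96 valid bases, distance on either strand and leaving out each library. Clean reads, valid bases and GC content came from the study's supplementary list of libraries and served only there. Same-numbered pigs of different stages did not deviate together (1 of 84 pairs over 0.1, r from -0.0806 to 0.104), so no sign of pairing by number was seen. Many counts are low, so a pairing could go unseen.

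Names followed a rule: the 5 most abundant and 5 most distant members, the 8 smallest p in each direction for the age trend, the largest called changes without overlap at each stage (8 each way for day 180, 5 for day 120, 4 for day 180 vs. day 120 and 2 elsewhere), 5 for any stage difference, 5 outside annotated exons, 4 steady members, those beside the distance threshold and 3 per gene list, with a mean of at least 10 for all but the distance and annotation groups. Members, rule and lists were chosen with earlier results of these data known. CircRNAs named outside the rule are those used as examples of host genes, strands and short lists, chosen after their values were seen.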

Additional observations from a re-analysis of the deposited data

How the results depend on the processing

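The count of isolated circRNAs called depended most on the depth used for scaling. With clean reads as the depth it was 24 at day 14 (85 of all 3000), 169 at day 21 (628), 130 at day 28 (431) and 261 at day 35 (920). It was 550 at day 120 (1972), 298 at day 180 (1009) and 10 for day 180 vs. day 120 (43). It was 560 for the age trend (1943) and 420 for any stage difference (1515). Under this scaling the slopes of AP2A1 (0.04), IGF1R (0.02), SLC7A1 (0.01) and AFDN (0.03) turned positive. After thinning the count called was 4 at day 21 (11 of all 3000), 4 at day 28 (23) and 11 at day 35 (33). It was 31 at day 120 (82), 47 at day 180 (143) and 73 for the age trend (238). Among libraries with at least 0.96 valid bases it was 0 at day 21, 6 at day 28, 0 at day 35, 18 at day 120, 15 at day 180, 40 for the age trend and 35 for any stage difference. At day 21 DESeq2 size factors gave 6, table totals 4, DESeq2 3 and library GC content as a covariate 0, and GC content gave 2 at day 35 and 32 at day 120. DESeq2 gave 1 at day 14 and 138 for any stage difference. Leaving out 1 library gave 0 to 3 at day 14, 0 to 8 at day 21, 4 to 15 at day 28, 9 to 19 at day 35, 28 to 53 at day 120, 55 to 82 at day 180, 131 to 158 for the age trend and 70 to 88 for any stage difference. The counts called over all 3000 circRNAs moved broadly alike, here and above, so these shifts are not particular to isolated circRNAs. The cause of these differences was not tested, beyond fewer libraries or reads where libraries were left out or thinned. With distance counted on either strand the isolated share of reads was 19.9% at day 1, 19.3% at day 7, 20.3% at day 14, 20.8% at day 21, 21.1% at day 28, 21.6% at day 35, 20.6% at day 120 and 21.6% at day 180, and with valid bases of at least 0.96 it was 26.9% at day 35.

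The replicate number as a block gave 10 calls at day 21, 10 at day 28, 17 at day 35, 58 at day 120, 81 at day 180, 151 for the age trend and 83 for any stage difference, though no sign of pairing by number was seen. Over the named circRNAs, 3062 results under an alternative kept direction and side of the threshold, 317 lost the call, 56 gained one and 4 changed direction. For a circRNA listed at 0 in 3 libraries of a stage, the 95% upper bound on the expected reads over them was 7 after rounding up. Ratios with 1 read in each listed 0, an alternative chosen after seeing the data, were 5.01 to 19 against 8.36 to 31.7.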
